A study of Homo sapiens with 4 samples.

Results

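The light-strand RNA opposite COX1 is the antisense complement of the mRNA for subunit I of cytochrome c oxidase, the mitochondrial enzyme that passes electrons to oxygen. It was taken as every position from 9125 to 10666 of the light-strand files, which is 1542 of the 16500 positions in such a file. In the files' numbering a light-strand position plus the heavy-strand position it pairs with makes 16569, so the region lies opposite heavy-strand positions 5903 to 7444. The RefSeq gene table (GRCh38.p14) gives COX1 at 5904 to 7445, 1 higher than the files' numbering there. COX1 has no intron, and the whole region is antisense to its coding sequence. On its 5′ side the region directly follows TRNS1, a serine tRNA that belongs to the light strand itself (light-strand positions 9056 to 9124). On its 3′ side a short spacer separates it from TRNY, a tyrosine tRNA of the same strand (10679 to 10744). The region holds 410 A and 250 C, the bases that dimethyl sulfate (DMS) modifies in this RNA, and 463 G and 419 T, which pair with the modifiable C and A of the COX1 mRNA.

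The study probed RNA folding inside mitochondria isolated from HEK-293T, an established line of human embryonic kidney origin. Isolated organelles of all 4 libraries were exposed to 1% DMS for 5 min at 37 °C, RNA was copied with TGIRT-III, an enzyme that misreads methylated bases, and mismatches were counted at each position of both strands. The groups are wild type (2 biological replicates) and LRPPRC KO (2 biological replicates). The labels do not say whether the knockout line is 1 clone, an untreated library was not analysed here, and the nuclear LRPPRC transcript is not in these files, so the knockout was not checked through it. The files hold fractions without read counts, so the depth behind each value is unknown. Fractions are given below as percent, and ± is the SD over the 2 libraries of a group.

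Both strands of human mitochondrial DNA are transcribed almost along their whole length. The heavy-strand transcript yields most mRNAs and both rRNAs, whereas the light-strand transcript carries ND6 and a few tRNAs, and the long antisense stretches between them, such as the one opposite COX1, are normally removed by the organelle's RNA-degrading machinery. LRPPRC is an RNA-binding protein that, with its partner SLIRP, binds and stabilises mitochondrial mRNAs, and its gene is mutated in the French-Canadian form of Leigh syndrome. In a strand-resolved DMS experiment, the antisense RNA itself should carry mismatches at A and C, while a copy of the mRNA filed under the light strand carries them at G and T, opposite the C and A of the mRNA.

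The sequence below shows where the high mismatches lay in the 50-nt window whose A and C values rose most in the knockout on the log2 scale, light-strand positions 9975 to 10024 (heavy-strand 6545 to 6594). It is read 5′ to 3′ from the base column of the files. Capitals mark positions with a group mean of at least 3% mismatches. The last line gives the paired stretch of the COX1 mRNA, also 5′ to 3′, marked by the wild-type heavy-strand files.
light strand, wild type: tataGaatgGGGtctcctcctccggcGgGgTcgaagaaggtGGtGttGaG
light strand, LRPPRC KO: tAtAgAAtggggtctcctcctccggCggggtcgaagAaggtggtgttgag
heavy strand, wild type: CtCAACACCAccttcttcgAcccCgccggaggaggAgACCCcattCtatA
All 12 capitals of the wild-type line were G or T, and all 6 of the knockout line were A or C. The mRNA line held 18 capitals.

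The second window, light-strand positions 9475 to 9524 (heavy-strand 7045 to 7094), holds both A and C positions with the highest knockout values in the region, marked in the same way.
light strand, wild type: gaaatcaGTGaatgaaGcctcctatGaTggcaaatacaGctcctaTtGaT
light strand, LRPPRC KO: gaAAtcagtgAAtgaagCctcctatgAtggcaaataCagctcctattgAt
heavy strand, wild type: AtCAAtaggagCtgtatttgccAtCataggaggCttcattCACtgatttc
Its 10 wild-type capitals were again all G or T, and its 8 knockout capitals all A or C.

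The third stretch, light-strand positions 10625 to 10666 (heavy-strand 5903 to 5944), is the 3′ end of the region, opposite the first codons of COX1, and had the smallest log2 change at A and C of any window in the region.
light strand, wild type: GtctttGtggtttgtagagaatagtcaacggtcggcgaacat
light strand, LRPPRC KO: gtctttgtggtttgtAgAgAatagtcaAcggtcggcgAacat
heavy strand, wild type: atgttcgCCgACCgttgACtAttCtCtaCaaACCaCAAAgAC
Here only 2 wild-type positions reached the mark although 20 did so in the mRNA, and 5 reached it in the knockout.

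Over the region, 389 positions had a wild-type mean of at least 3%, and 11 of them were A or C (2.83%). In the knockout 101 positions did so, and 99 of them were A or C (98.0%). In wild type the high positions of the light-strand file thus lay mostly on G and T, opposite the mRNA's modifiable C and A. In the knockout they lay mostly on the antisense RNA's own modifiable bases.

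Mean levels showed the same exchange. A positions averaged 1.07% and 1.07% in the wild-type libraries and 2.29% and 2.30% in the knockout libraries. C positions averaged 0.443% and 0.428% in wild type against 1.34% and 1.34% in the knockout. G positions averaged 3.32% and 3.32% in wild type against 0.675% and 0.703% in the knockout. Every knockout library lay above both wild-type libraries at A and C and below both at G, and the gap was many times the distance between replicates. T positions averaged 2.55% and 2.67% in wild type against 0.849% and 0.843% in the knockout, again without overlap.

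Taken over the 650 A and C positions within the limits of 0.2% to 30% on the mean of the 4 libraries, the level was 0.836% ± 0.00474 in wild type against 1.95% ± 0.00509 in the knockout, a ratio of 2.33. Over the 876 G and T positions it was 2.98% ± 0.0406 and 0.764% ± 0.00827, a ratio of 0.256. The quotient of the 2 levels was 0.284 and 0.277 in the wild-type libraries and 2.56 and 2.53 in the knockout libraries. Each of these 3 differences had a two-sided exact permutation p of 0.333, the smallest that 2 libraries against 2 allow. The limits left out 10 C positions and 5 G or T positions on the low side and 1 G on the high side. The lower limit fell between position 10303, kept at a mean of 0.202%, and position 10187, left out at 0.199%.

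**Figure D1:**
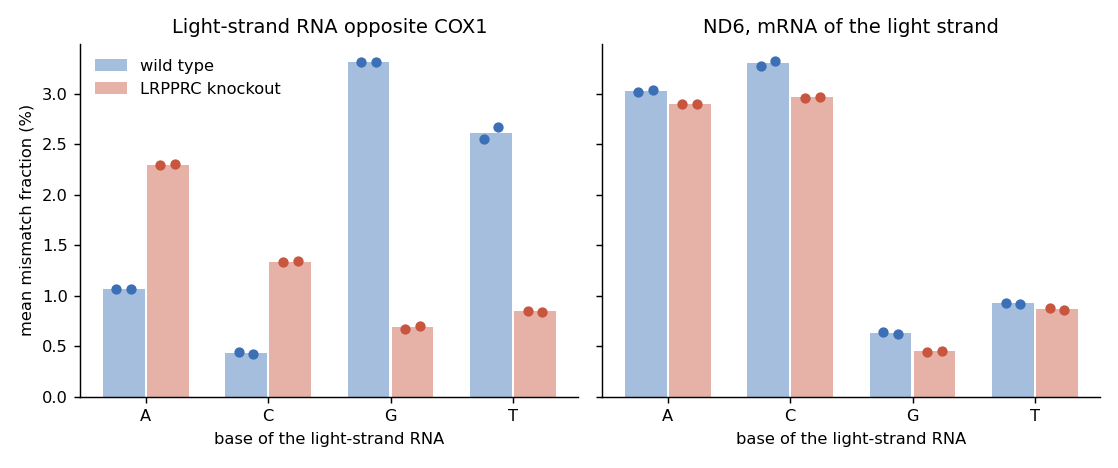
Mean mismatch fraction in percent (vertical axis) by base of the light-strand RNA (horizontal axis), for the region opposite COX1 (left) and for ND6, the mRNA of the light strand (right). Bars are group means and points are the 2 libraries of each group; opposite COX1, G and T were above A and C in wild type (2.98% against 0.836%) and below them in the knockout (0.764% against 1.95%), while in ND6 A and C were higher in both groups.

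ND6, an mRNA encoded in the same file, served as a comparison for an RNA that is the light strand's own product. Its A and C positions had 3.10% in wild type against 2.92% in the knockout, and its G and T positions 0.782% and 0.665%. The quotient of A and C over G and T was 3.97 in wild type against 4.39 in the knockout, so the exchange of bases seen opposite COX1 was not present there. The paired COX1 mRNA in the heavy-strand files went from 3.20% to 2.36% at its A and C and from 0.667% to 0.601% at its G and T.

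Other antisense stretches moved the same way but started from less extreme wild-type values. The quotient went from 0.788 to 2.31 opposite ND1 and ND2, from 0.582 to 3.51 opposite COX2 through ND3, and from 0.738 to 4.42 opposite ND4L and ND4. The A and C level rose 1.20-fold, 1.55-fold and 1.43-fold there, against 2.33-fold opposite COX1. On the log2 scale the region lay below the rest of the light strand by 0.89 and 0.90 in the wild-type libraries and above it by 0.07 and 0.08 in the knockout libraries. The knockout-minus-wild-type difference of that gap was 0.97, a comparison that needs no scaling between libraries. The same difference was 0.95 against the stretch opposite ND1 and ND2, 0.59 against COX2 through ND3, 0.72 against ND4L and ND4 and 1.30 against ND6. Each had the exact permutation p of 0.333, with no overlap between the groups.

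At single positions, log2(fraction + 0.001) was compared with limma across all tested positions of the light-strand files. A fold change on this scale understates the change at low positions. Library medians over A and C of the whole strand differed by 0.54 between the groups (knockout minus wild type, log2), so results are given relative to that shift and without it. Relative to the shift, 544 of the 650 A and C positions opposite COX1 passed an adjusted p of 0.05, where 75.4% of all A and C positions of the strand did. Of these, 462 rose and 82 fell; on the whole strand 24.6% rose and 50.7% fell. Without centring 560 rose and 28 fell, against 46.2% and 14.3% of the strand. The median change of the region was 0.68 relative to the shift (all tested positions, -0.32) and 1.22 without centring (0.22).

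Relative to the shift, 292 of the 410 A positions rose and 61 fell, with a median change of 0.60. Of the A positions of the strand 24.7% rose and 51.8% fell. Of the 240 tested C positions 170 rose and 21 fell on the same scale, with a median of 0.94. Of the C positions of the strand 24.6% rose and 48.6% fell. Without centring the median changes were 1.14 at A and 1.48 at C, so a fall relative to the shift need not be a fall in fraction. The fractions themselves did not overlap between groups at 581 A and C positions that were higher in the knockout (56.9% of the strand) and at 42 that were lower (25.4%).

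G and T positions ran opposite. Their library medians over the strand differed by -1.23. Relative to that shift 676 of 876 passed (strand, 77.9%): 126 rose (strand, 44%) and 550 fell (33.9%). Without centring 3 rose (2.28%) and 854 fell (72.4%). Fractions were lower in both knockout libraries without overlap at 863 of the 876 (82.3% of the strand) and higher at 7 (5.38%).

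In windows of 50 nt, all 31 windows of the region rose at A and C, where 28.5% of the windows of the strand did relative to the shift and 55.7% without centring. The largest log2 change was in the window shown first above, at 9975 to 10024. Its A and C mean was 0.538% and 0.533% in the wild-type libraries and 2.22% and 2.19% in the knockout libraries. The change was 1.42 relative to the shift (SE 0.04, limma adjusted p = 9.92e-07) and 1.96 without centring. It was followed by 9475 to 9524, the second window shown, with 0.657% ± 0.0232 and 2.54% ± 0.0141 and a change of 1.11, and by 9825 to 9874, with 0.410% ± 0.0316 and 1.66% ± 0.00953 and also 1.11. At the other end of the order stood the 3′ terminal window, 10625 to 10666, with 1.49% ± 0.0685 in wild type, 2.33% ± 0.0133 in the knockout and a change of 0.12 (adjusted p = 0.00942). The windows 10125 to 10174 and 10075 to 10124 came next with changes of 0.18 and 0.31. Over all 31 windows the A and C mean ran from 0.403% to 1.51% in wild type and from 1.34% to 2.54% in the knockout. In percentage points the second window rose more than the first, by 1.88 against 1.67.

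**Figure D2:**
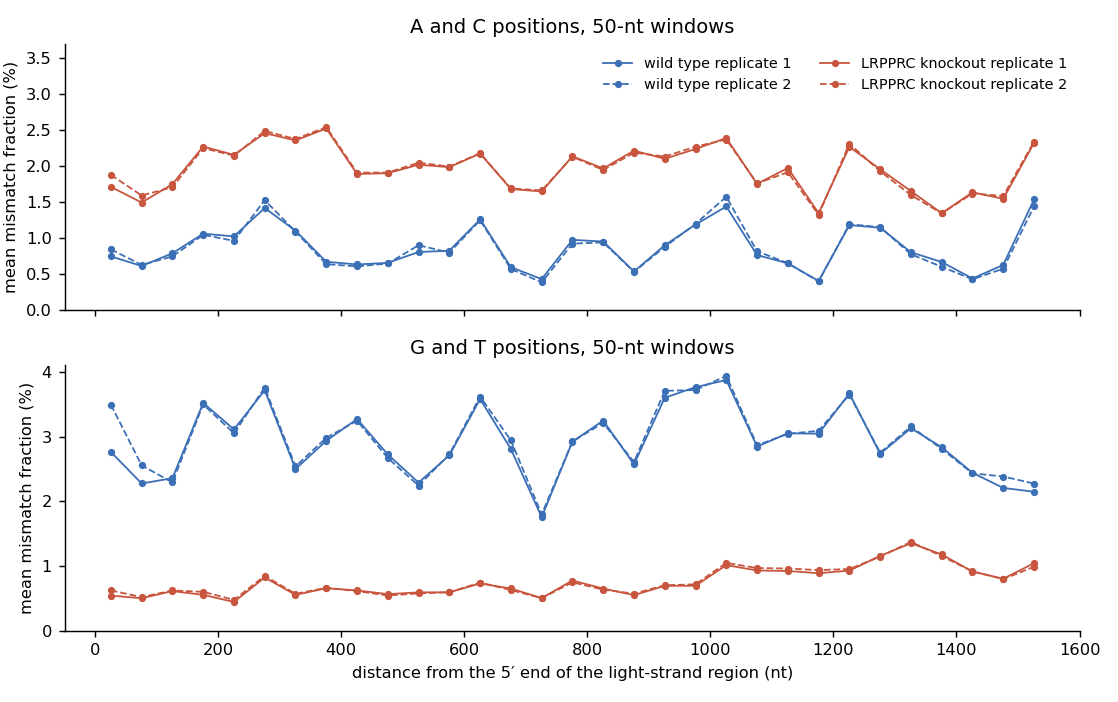
Mean mismatch fraction in percent (vertical axes) of 50-nt windows against distance in nt from the 5′ end of the light-strand region (horizontal axis), A and C above, G and T below. Each line is 1 library, wild type in blue and LRPPRC KO in red; in all 31 windows the knockout lines lie above the wild-type lines at A and C and below them at G and T.

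Among the 8 A and C positions with the largest rise, position 9492, a C inside the second window shown (paired with heavy-strand 7077), had 0.411% and 0.338% in wild type against 7.46% and 6.98% in the knockout. Its change was 3.41 relative to the shift (SE 0.08, limma adjusted p = 0.000173) and 3.95 without centring, but 2.23 with a pseudocount of 0.01 in place of 0.001. Position 9477, an A in the same window, had 0.913% and 0.848% against 9.02% and 9.69%, a change of 2.73 (SE 0.05). These are the highest knockout values of the region at A or C.

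A run of 3 rising positions lay in the first window shown. Position 10009 had 0.210% and 0.210% in wild type against 2.92% and 2.68% in the knockout, a change of 2.68. Position 10011 had 0.208% and 0.247% against 3.37% and 3.09%, and 10012 had 0.225% and 0.173% against 2.66% and 2.96%, with changes of 2.80 and 2.74. All 3 are A within the letters agaa of that window, and in wild type they were close to 0.2%. The other rises were 10545 (A, 2.95), 9598 (C, 2.90) and 9852 (C, 2.52). Next in knockout level at A or C were 9351, a C with 0.747% and 0.669% against 5.61% and 5.81%, and 9537, an A with 1.21% and 1.15% against 5.12% and 5.26%.

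The 4 largest falls were all at A. Position 9954 had 0.824% and 0.776% in wild type against 0.145% and 0.250% in the knockout, a change of -2.16 (SE 0.21, limma adjusted p = 0.000830) that was -1.62 without centring. Position 9175 had 4.27% and 4.04% against 1.45% and 1.78%, a change of -1.86. Position 9264 had 2.02% and 1.93% against 0.839% and 0.667%, a change of -1.83. With deletions counted as well, 9264 had 2.35% and 2.19% in wild type against 2.95% and 2.75% in the knockout, and its change relative to the shift was -0.23. In mismatches alone these 3 positions fell in a region that rose, and their groups did not overlap. Position 9426 had 4.19% and 4.14% against 1.73% and 1.75%, a change of -1.75. Its paired base in the mRNA, a T at heavy-strand 7143, had 4.22% in wild type against 1.65% in the knockout, so both strands showed the same level and the same fall there.

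Among G and T positions, the highest wild-type value was at the first position of the region, directly after TRNS1. Position 9125, a T, had 14.7% and 19.0% in wild type against 2.68% and 2.70% in the knockout, while its paired A in the mRNA had 2.17% and 1.90%. Position 9127, also a T, had 9.58% and 12.7% against 2.06% and 2.40%, with 2.30% and 2.12% in the mRNA. At these 2 positions the wild-type light-strand value was several times that of the mRNA. Between them, the C at 9126 had 0.301% and 0.326% in wild type against 0.696% and 0.709% in the knockout. The reason was not tested, and 9125 and 9127 were kept in the G and T level and in the slopes given below. Without the first and last 100 nt of the region the G and T level was 3.05% in wild type against 0.772% in the knockout. The capitals below mark the start of the region after the 3′ end of TRNS1, light-strand positions 9110 to 9139.
5′ edge: ttccttccttttttgTCTAGATTTTATGTA
The other high G and T positions were closer to the mRNA. Position 10302, a G, had 9.20% and 9.63% in wild type against 1.95% and 2.07% in the knockout, with 10.4% and 8.35% at the paired C. Position 9397, a T, had 8.74% and 9.43% against 0.909% and 0.972%, with 10.2% and 2.70% at the paired A. Position 10172, a G, had 9.29% and 9.39% against 1.14% and 1.33%, with 9.24% and 3.76% at the paired C. In wild type these 3 were close to the mRNA's value, and in the knockout they were well below it. Position 10126, a T, had 9.03% and 9.59% against 1.24% and 1.29%, and was above its paired A (3.87% and 2.85%) in wild type only.

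One position, a G at 9542, exceeded the upper limit, with 93.4% and 92.8% in wild type against 93.6% and 94.1% in the knockout. The paired base in the heavy-strand files had 94.0% and 95.1%. Such a level in every library of both strands differs from all other positions of the region, and it was kept out of every test.

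How much of the light-strand value moved with the mRNA was measured by the slope of a regression, within each library, of the light-strand fraction at G and T on the heavy-strand fraction at the paired C and A (881 positions). Where the antisense RNA itself gives only a constant background at G and T, this slope estimates the weight of sense reads among the reads of the light-strand file, which is not their share of a mismatch value. It was 87.3% and 89.0% in the wild-type libraries and 17.2% and 17.9% in the knockout libraries. The difference of -70.6 percentage points had the exact permutation p of 0.333, and it ranged from -79.4 to -61.8 over the other estimators and position sets tried. The knockout slope itself depended on the estimator: it was 29.9% with a line through the origin and 8.74% on the wild-type mean of the heavy strand, where wild type had 91.7% and 88.2%. Pearson's r over these positions, given as a description, was 0.867 and 0.842 in wild type against 0.434 and 0.459 in the knockout. The wild-type light-strand profile followed its own heavy-strand file (r = 0.864 and 0.839) more closely than the heavy-strand files of the knockout (0.729 to 0.742).

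**Figure D3:**
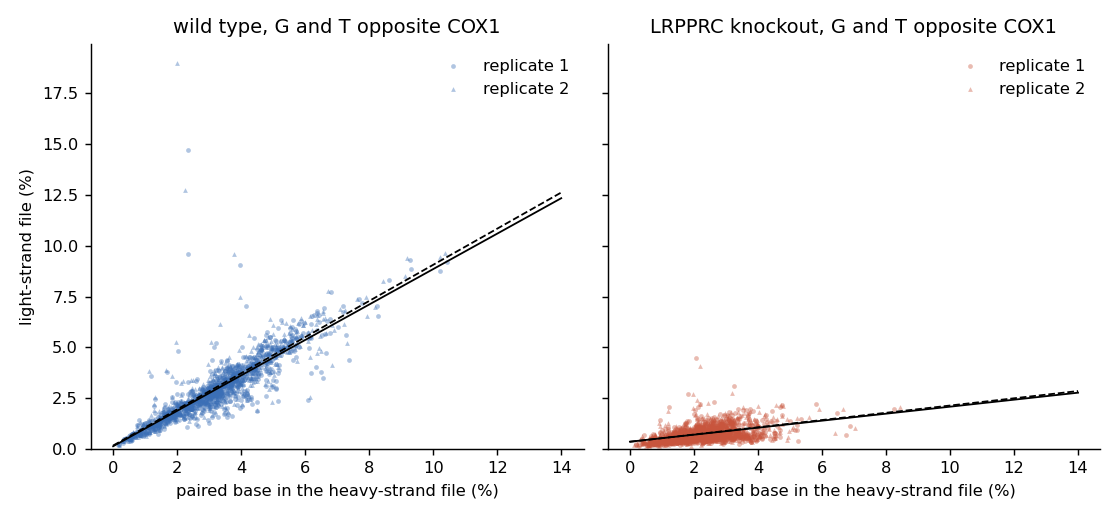
Each point is a G or T position opposite COX1, with its light-strand fraction in percent (vertical axis) against the fraction of the paired base in the heavy-strand file of the same library (horizontal axis), wild type left and LRPPRC KO right. Lines are the fitted slopes, solid for replicate 1 and dashed for replicate 2; the slopes are 87.3% and 89.0% in wild type against 17.2% and 17.9% in the knockout.

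Of the 14 heavy-strand mRNAs and rRNAs whose opposite strand was measured this way, COX1 had the highest slope in both wild-type libraries. COX2 had 77.3% and 79.9% and RNR1, the small rRNA, 76.9% and 83.6%, while ND3 had 9.24% and 7.65%. In the knockout COX1 ranked below RNR1 (51.6% and 54.5%), RNR2 and ND1. Pooled over several genes the slope went from 53.1% to 22.7% opposite ND1 and ND2, from 64.9% to 5.79% opposite COX2 through ND3 and from 54.8% to 4.21% opposite ND4L and ND4. In ND6 it was -4.03% and -4.51%, near 0 in both groups.

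**Figure D4:**
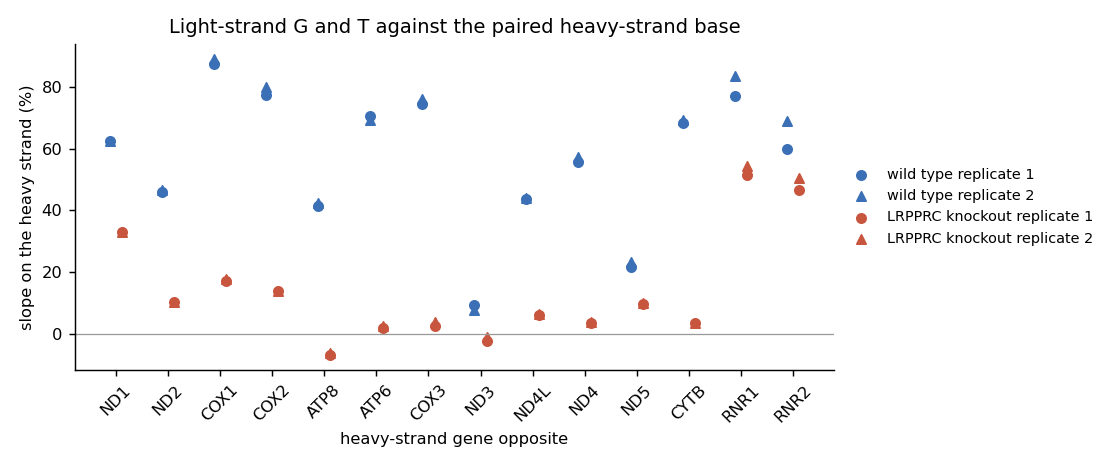
Slope in percent (vertical axis) of the light-strand fraction at G and T on the paired heavy-strand fraction, for the stretch opposite each of 14 heavy-strand genes (horizontal axis). Each marker is 1 library; COX1 has the highest wild-type values (87.3% and 89.0%) and falls to 17.2% and 17.9% in the knockout.

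The slope also varied along the region. In stretches of 250 nt from the 5′ to the 3′ end of the light-strand RNA (the last 292 nt long), wild-type means were 69.6%, 95.0%, 95.8%, 87.1%, 97.2% and 79.6%. Knockout means were 5.39%, 12.2%, 14.8%, 12.8%, 22.9% and 34.1%. The wild-type slope was lowest at both ends, whereas the knockout slope was lowest at the 5′ end and highest at the 3′ end, opposite the start of the COX1 mRNA. The first stretch holds positions 9125 and 9127, whose wild-type values were several times those of the mRNA. The knockout G and T level followed, from 0.551% in the first stretch to 1.07% in the last. The A and C level showed no such course: it ran between 0.747% and 0.924% in wild type and between 1.71% and 2.24% in the knockout.

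The slopes come from G and T alone, so the A and C positions could be compared with what that weight gives for them. At A and C of the light strand the paired bases of the mRNA are T and G, which DMS marks little, and these averaged 0.693% and 0.655% in wild type against 0.604% and 0.608% in the knockout. Slope times that value gave a sense part of 0.605% and 0.583% in wild type, or 72.0% and 70.0% of the observed A and C level. In the knockout it gave 0.104% and 0.109%, or 5.37% and 5.57%. The weight left for antisense reads was 12.7% and 11.0% in wild type against 82.8% and 82.1% in the knockout. The small wild-type weight depends on the slope used. The mean wild-type slope was 83.7% from T alone and 93.8% without the first and last 100 nt of the region. The correction below was not repeated with these slopes.

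With the sense part taken out and the remainder divided by that weight, the mean A and C level was 1.84% and 2.28% in wild type against 2.22% and 2.24% in the knockout. The group means, 2.06% ± 0.307 and 2.23% ± 0.0141, differed by 0.169 percentage points where the observed levels had differed by 1.11. The wild-type libraries lay on either side of the knockout libraries (exact permutation p = 1), and the sign of this difference changed with the estimator, without wild type replicate 1 and at A alone. With a separate slope for each 250-nt stretch the level was 3.23% in wild type against 2.24% in the knockout. There the slope reached 98.3% in wild type replicate 2, which leaves a very small divisor. The comparison at single positions below allowed slopes of at most 0.95, a limit not applied to the stretches. A gave 2.47% and 3.01% in wild type against 2.62% and 2.65% in the knockout, so the groups overlapped. C gave 0.776% and 1.03% in wild type against 1.53% and 1.54% in the knockout. With this slope the knockout thus remained higher for C, by a ratio of 1.70, where the observed ratio was 3.08. A and C were taken apart with the main least-squares slope of each library only, so whether this holds with other slopes was not tested.

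In the wild-type libraries the mean and the median of the corrected values lay far apart. Corrected values were below 0 at 139 and 122 of 650 positions in the wild-type libraries and at none in the knockout libraries. At the other extreme, position 10388 had corrected wild-type values of 45.1% and 59.2%, where 6.14% and 6.86% were observed. Position 9393 had 26.6% and 43.0%, where 3.75% and 5.06% were observed. Such high values raise the corrected wild-type mean. The median corrected value was 0.926% and 0.952% in wild type against 2.15% and 2.18% in the knockout, a difference about as large as the observed one.

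A calculation in the other direction avoids that division. The corrected knockout profile was mixed with each wild-type library's own heavy-strand values in the wild-type proportions. The mixture had a mean A and C level of 0.889% and 0.828%, or 0.858% ± 0.0432, and the observed wild-type level was 0.836% ± 0.00474. It stayed between 0.821% and 0.866% with the 3 other slope estimates. Over single positions, the median absolute log2 difference from observed wild type was 0.33 for the mixture and 1.22 for the knockout, against 0.10 between the wild-type replicates. The mixture was within 1 log2 unit of wild type at 609 of 650 positions (93.7%), and the knockout at 232 (35.7%). At the level of the region the mixture differed from wild type by less than its own SD but more than the wild-type SD. At the typical position it differed by more than 3 times the replicate distance, with a median signed difference of 0.24. The mixture holds the same sense part as the observed wild type (72.0% and 70.0% of the observed level). The corrected knockout profile entered with a weight of only 12.7% and 11.0%. The mixture's closeness to wild type was thus largely built in and cannot show that the corrected profiles were alike.

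**Figure D5:**
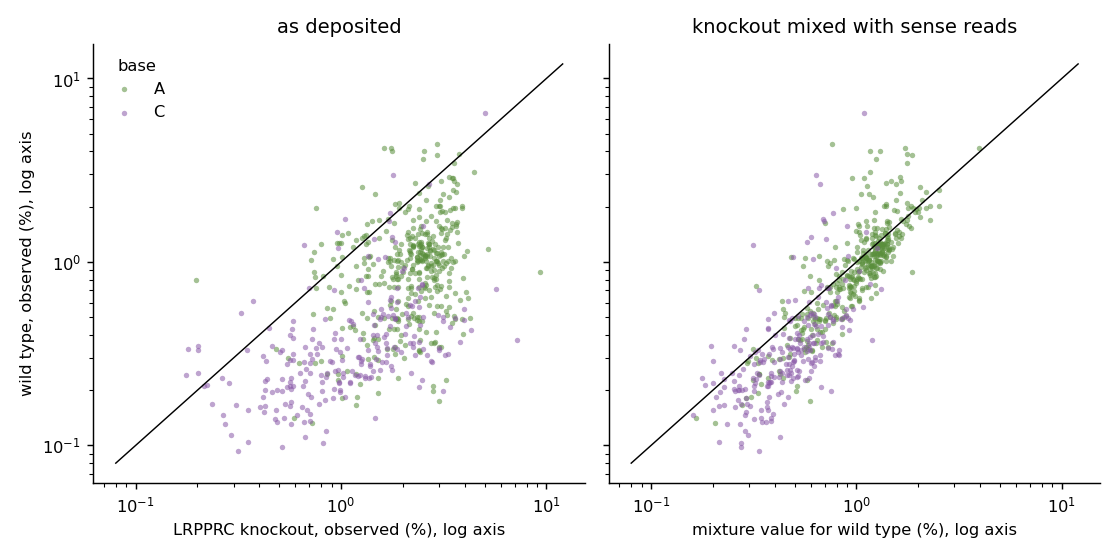
Observed wild-type fraction (vertical axis) of each A and C position opposite COX1 against the observed knockout fraction (left) and against the value of the knockout profile mixed with sense signal in the wild-type proportions (right), in percent on log axes, group means. The line marks equal values. Within 1 log2 unit of equality lie 35.7% of positions on the left and 93.7% on the right. The mixture contains the wild-type libraries' own sense part.

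Pearson's r across the 650 positions was 0.424 between wild type and knockout and 0.725 between wild type and the mixture, with Spearman's rho of 0.560 and 0.875. Wild type against the paired heavy-strand value alone gave 0.698 and 0.855. These are descriptions over neighbouring positions of 1 RNA that share base composition and, for the mixture, the wild-type heavy-strand values. After the correction, wild type and knockout had r = 0.319 and rho = 0.472, lower than before it, although the corrected wild-type replicates still followed each other (r = 0.966).

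Some positions departed from the mixture in both wild-type libraries. They were chosen after their values were seen. Position 10388, a C, had 6.14% and 6.86% in wild type where the mixture gave 1.17% and 1.01%, and 4.83% and 5.25% in the knockout. Position 9393, an A, had 3.75% and 5.06% in wild type against 2.93% and 2.95% in the knockout. Position 9694, a C, had 2.98% and 2.94% in wild type against 1.80% and 1.79% in the knockout. At these A and C positions the wild-type level was above the knockout level although over the region as a whole it was lower. Position 10404, a C, had nearly equal values in the groups, 2.69% and 2.66% against 2.60% and 2.75%. On the other side, 9598, 9492, 10545 and 10549 were lower in wild type than the mixture, and 3 of these are among the largest rises named above.

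The limma comparison was repeated on the corrected values, with negative ones set to 0, over the 4432 A and C positions opposite the heavy-strand mRNAs and rRNAs. Opposite COX1 428 of 650 positions passed (60.2% of all), of which 309 were higher in the knockout (20.1%) and 119 lower (40%). Of the 462 positions that rose before the correction, 274 still did so, 158 no longer passed and 30 passed in the other direction. Of the 82 that fell, 54 still fell, 22 no longer passed and 6 were reversed. This split was not computed over all 4432 positions, so it cannot be called particular to the region. The count of 428 depended on the libraries kept: it fell without either knockout replicate and rose without either wild-type replicate. The test took a common variance for both groups at each position. Corrected wild-type libraries were further apart than corrected knockout libraries (SD of the mean level 0.307 against 0.0141). Error in a library's slope is shared by its positions and is not in the p-values. Position 9492 had corrected values of 1.84% and 1.63% in wild type against 8.92% and 8.38% in the knockout. Position 9477 had 2.80% and 3.13% against 10.7% and 11.6%. Position 9598 had -1.28% and -0.712% in wild type, values that no fraction can take, against 3.67% and 3.66%.

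The folding of the antisense RNA was predicted from sequence alone as the probability that a base is unpaired. Spearman's rho between that probability and the A and C fraction was 0.474 and 0.466 in the wild-type libraries and 0.614 and 0.612 in the knockout libraries. Within A it was 0.213 in wild type against 0.393 in the knockout, and within C 0.225 and 0.585. The relation was closer in the knockout for each base, and these values too are descriptions without a test. Positions predicted unpaired with probability over 0.8 (128 positions) had 1.12% ± 0.00649 in wild type against 2.74% ± 0.0112 in the knockout, and those under 0.2 (207 positions) had 0.527% ± 0.00355 and 1.16% ± 0.00650. When the sense sequence was folded instead, rho at A and C was 0.652 in wild type against 0.581 in the knockout. Over A and C together, the mRNA's predicted fold thus ranked the wild-type values better than the antisense RNA's own. Pooled values also hold the difference between A and C. For the sense fold rho was not computed within each base, so this order may not come from folding. After the sense part was taken out, rho with the antisense fold was 0.323 in wild type against 0.604 in the knockout. The wild-type G and T fractions had rho = 0.448 and 0.473 with the sense fold, close to the 0.496 of the mRNA's own A and C.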

How the data were processed

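The values are fractions of mismatched reads per position, deposited by the authors as 1 file per library and strand (per the file headers, mismatches and, in another column, mismatches with deletions). The submitters' processing notes name cutadapt and Bowtie2 without versions, and the series' design text names DREEM and RNAstructure. The genome build and read filters are not given in the sources used here. Depth is unknown, so no interval or floor was computed. The region, comparison stretches, lists and tests were chosen with earlier results of these data known.

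Tested positions had a mean fraction of 0.002 to 0.3. log2(fraction + 0.001), centred on the library median of the tested A and C (or G and T) of the strand, was fitted on the whole strand with limma 3.58.1 (lmFit, eBayes with trend) in R 4.3.3, two-sided, and p-values were adjusted by Benjamini-Hochberg and called under 0.05. Windows needed 8 tested positions. Single values per library were compared by two-sided exact permutation tests. Sense slopes were least-squares fits with an intercept. The corrected value is (light minus slope times heavy) over (1 minus slope), and the mixture calculation was added after the values were seen. The rule for named positions took the 8 largest rises and 4 largest falls among called A and C positions without overlap, the 6 highest G and T positions in wild type, the 4 highest A or C positions in the knockout, every position above the upper limit, and the 3 windows at each end of the order of change. Unpaired probabilities came from RNAplfold (ViennaRNA 2.7.2, window 240 nt, span 160 nt, 37 °C). The rest used scipy 1.17.1, pandas 2.3.3, numpy 2.4.6 and matplotlib 3.10.9 under Python 3.11.15. The limma and slope steps were tested on simulated data. Alternatives covered the pseudocount, limits, scaling, column, slope estimator, folding, replicate block and leaving out each library. The labels call the replicates biological, and nothing says that equal numbers share a culture.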

Additional observations from a re-analysis of the deposited data

How the results depend on the processing

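With 2 libraries a group and no counts, precision rests on the spread between replicates alone, and low fractions could not be weighted by depth. The 20 named positions kept the direction of the fitted change and the side of the threshold under all 279 alternative values, but not size. With a pseudocount of 0.01 the changes of 9 were smaller by over 1.5 times (9954, -0.94). With deletions counted 9264 had -0.23 relative to the shift. Its fraction itself was then higher in the knockout, 2.95% and 2.75% against 2.35% and 2.19% in wild type. With a lower limit of 0.01 the falls of 10302 and 9127 were -0.57 and -0.66. Without centring the 6 G and T falls were -3.14 to -2.17. For the region's summary results, 123 alternatives kept the main result, 6 moved from it and 5 reversed its sign. A count was kept if within 1.5 times the main count, and a difference or log2 ratio if its sign stayed. The mixture level and the fold correlation were kept if they shifted by less than the SD over the libraries of a group. The corrected A and C difference (knockout minus wild type, 0.169 percentage points) turned to -0.203 with slopes through the origin, -0.183 with Theil-Sen slopes, -0.992 with a slope for each 250-nt stretch and -0.103 at A alone; the cause was not tested. Solving both files together gave the main value by construction. Without single libraries it ran from -0.0478 to 0.386. The count of calls after the correction ran from 144 (without LRPPRC KO replicate 2) to 583 (without wild type replicate 1). Leaving out libraries moved the A and C calls to 478 to 539, the G and T calls to 575 to 665, the windows to 29 to 31, the slope difference to -71.5 to -69.7 and the mixture level to 0.828% to 0.889%. The Spearman correlation with the antisense fold in the knockout, 0.613, was 0.393 at A, 0.585 at C, 0.582 with a window of 150 nt and 0.581 with the sense sequence folded.

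The replicate block, which takes equal replicate numbers as pairs, left 533 A and C calls, 656 G and T calls, 31 windows and 419 calls after the correction. Deviations of libraries with the same number had a correlation of 0.0449, and the numbers are shared only as numbers.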

Other observations

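Deletions in the light-strand file opposite COX1, taken as the difference of the deposited columns, moved like the mismatches at A, G and T but not at C. At T they averaged 0.287% ± 0.0153 in wild type and 0.0627% ± 0.000867 in the knockout (SD, n = 2), and at G 0.117% ± 0.000755 and 0.0292% ± 0.000759. At A they rose from 0.111% ± 0.00412 to 0.161% ± 0.00255. C had the fewest wild-type deletions, 0.0478% ± 0.000418, and fell to 0.0334% ± 0.00104 in the knockout although its mismatches rose.

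The base on the 3′ side went with the level of A and C opposite COX1 in the knockout. A before G averaged 2.54% (138 positions), A before A 2.37% (96), A before T 2.11% (125) and A before C 1.97% (51). C before G averaged 1.61% (56) and C before C 1.08% (53). In wild type A before A was highest, at 1.29%, and A before G had 1.04%. No explanation of these orders was tested.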
